A study of Oryza sativa Indica Group with 4 samples.

Results

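EME1 and the rice genes for junction cutting, homologous pairing and germ cell entry into meiosis were followed across the panicle primordia of lines with many and with few grains. The names looked up by symbol or synonym in the pairing of array probe sets with genes were EME1, MUS81, DMC1A, DMC1B, PAIR1, PAIR2, PAIR3 and MEL1. The 8 names led to 7 genes, because the gene table gives DMC1A and DMC1B as synonyms of the same entry (LOC4351482), here called DMC1. Of the 7 genes, 6 had a probe set, 1 each, out of 57194 probe sets on the array other than controls. PAIR3 (LOC4348581) was not analysed here. All 6 probe sets were bright enough on average to enter the test, which covered 34316 probe sets. EME1 was chosen by its difference in intensity between these same bulks, so its values are a description with no test. The other genes were chosen for what they do, but with earlier results of these data known.

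The study measured gene expression with an Affymetrix rice array, which reports 1 intensity per probe set. The high grain number group was a bulk of RNA from 10 recombinant inbred lines of Oryza sativa (Indica Group) whose panicles bear many grains, and the low grain number group a bulk from 10 lines whose panicles bear few. Recombinant inbred lines are fixed by repeated selfing after a cross, here of 2 cultivars. All RNA came from panicle primordia at the stage the submitters number 0, and each group had 2 arrays, called biological replications. The labels do not say what the replications share, so p-values measure only the spread between these arrays, and the 10 lines of a bulk are not seen one by one.

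In meiosis, chromosomes are broken on purpose, the broken ends invade the partner chromosome with the help of the recombinase DMC1, and the joined molecules are cut apart to give crossovers. EME1 is the non-catalytic partner of the nuclease MUS81, and in yeast, mammals and Arabidopsis the pair cuts branched DNA in meiosis and also at stalled replication forks in ordinary dividing cells. PAIR1, PAIR2 and PAIR3 are rice proteins needed for homologous chromosomes to pair, and MEL1 is an Argonaute protein of rice germ cells that have not yet entered meiosis. In rice, meiosis takes place inside anthers and ovules, which form after the panicle has branched.

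The arrays differed in overall brightness as deposited (trimmed means of 36.5 to 55.3), so intensities were quantile normalised, which gives all arrays the same distribution. Differences are high minus low grain number after 16 is added to each intensity and log2 taken, so changes of dim probe sets come out too small, and SE is limma's moderated standard error. Adjusted p-values are limma's, two-sided, with Benjamini-Hochberg adjustment over all tested probe sets at 0.05. In bulk tissue, fewer cells of a type and less RNA per cell cannot be told apart. Of 10 tested markers of the panicle meristem, 4 had a positive and 6 a negative difference, and 0 were past the adjusted threshold by limma (1 was under 0.05 before adjustment), where 0.568% of all tested probe sets were. OSH1 (LOC4333973), a homeobox gene of meristems, was bright on all arrays, but its 2 tested probe sets differed in direction. One had 527 and 606 in the high grain number bulks, against 763 and 650 in the low bulks, and the other 775 and 618 in the high bulks, against 613 and 516 in the low bulks. SPL14, which promotes panicle branching in rice, had 145 and 185 in the high bulks, against 492 and 282 in the low bulks (limma adjusted p = 0.122). Its difference was the lowest of the 10, and that of RFL was the highest (-1.12 and 0.51 on the log2 scale). RFL had 69.2 and 178 in the high bulks, against 77 and 71.5 in the low bulks (limma adjusted p = 0.774). ASP1 and LAX1 were dim (normalised intensity below 16 on every array), and FZP, a gene of floret identity, was near 0.

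EME1 (LOC4337213) had a normalised intensity of 232 and 311 on the high grain number arrays, against 85.2 and 94.2 on the low grain number arrays. Both high arrays stood well above both low arrays. The mean was 272 ± 55.4 in the high bulks, against 89.7 ± 6.43 in the low bulks (SD, n = 2 each), a linear ratio of 3.03. On the log2 scale the difference was 1.43 ± 0.22 (SE), or 2.70-fold. As deposited, before any scaling here, EME1 had 210.7 and 290 in the high bulks, against 73.2 and 124.1 in the low bulks, again without overlap. Ranked by signed difference, EME1 stood at place 25 from the top of 34316 tested probe sets.

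MUS81 (LOC4325837), the catalytic partner of EME1, had 59.3 and 62.0 in the high grain number bulks, against 61.9 and 64.1 in the low bulks. The 4 values lay close together and the groups overlapped. The log2 difference was -0.04 ± 0.20 (SE, limma adjusted p = 0.986), with a 95% interval of -0.49 to 0.41.

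**Figure D1:**
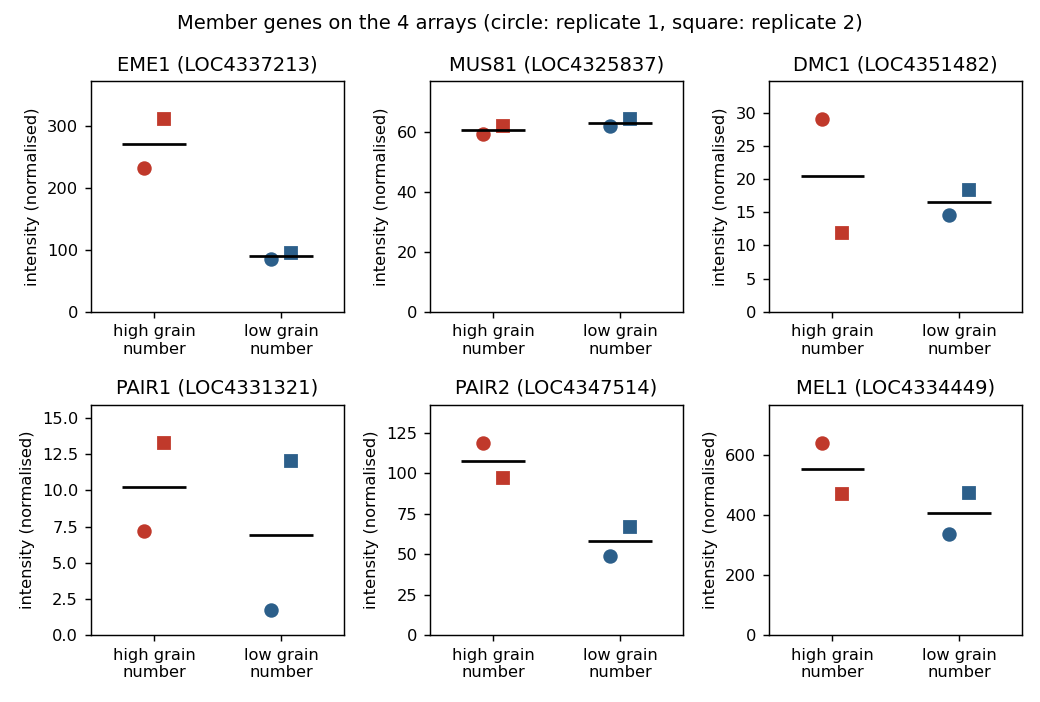
Normalised intensity (linear axis from 0) of the 6 member probe sets, with the high grain number arrays at left in red and the low grain number arrays at right in blue. Black lines are group means of 2 arrays. EME1 and PAIR2 separate the groups, MUS81 lies between 59.3 and 64.1 on all arrays, and DMC1, PAIR1 and MEL1 overlap.

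DMC1 (LOC4351482), the meiosis recombinase, had 29.0 and 11.8 in the high grain number bulks, against 14.6 and 18.4 in the low bulks. The high arrays lay on either side of the low ones. The log2 difference was 0.12 ± 0.25 (SE, limma adjusted p = 0.956, 95% interval -0.42 to 0.67). The probe set is paired with the entry that carries both DMC1 names. No separate entry was matched for either name, so whether the probe set reads both copies is not known.

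PAIR1 (LOC4331321), a coiled-coil protein needed for pairing, was dim throughout, with 7.20 and 13.2 in the high grain number bulks and 1.75 and 12.1 in the low bulks. All its values lay below the 16 added before the log, so its difference of 0.22 ± 0.24 (SE, limma adjusted p = 0.897) is pulled towards 0. It was the member with no deposited value above 16 on any array.

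PAIR2 (LOC4347514), the rice counterpart of the Arabidopsis chromosome axis protein ASY1, had 119 and 97.0 in the high grain number bulks, against 49.0 and 67.2 in the low bulks. Both high arrays were above both low arrays. Its log2 difference was 0.75 ± 0.22 (SE), or 1.68-fold, with a 95% interval of 0.26 to 1.24 for this gene taken alone. Adjusted over the whole table it missed the threshold (limma adjusted p = 0.289). As deposited, PAIR2 had 108.6 and 88.4 in the high bulks, against 42.8 and 88 in the low bulks, so the groups were separated by less than 1 unit of intensity.

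MEL1 (LOC4334449), the germ cell Argonaute, had 639 and 470 in the high grain number bulks, against 338 and 472 in the low bulks. The second array of each group was nearly level, and the groups overlapped. The log2 difference was 0.44 ± 0.22 (SE, limma adjusted p = 0.670, 95% interval -0.05 to 0.93).

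Taken as a set, 0 of the 5 tested members other than EME1 passed the threshold, where 0.568% of all tested probe sets did. At an unadjusted p under 0.05, limma gave 1 of the 5 (PAIR2), where 8.24% of all tested probe sets were below it. One of the 5, PAIR2, had groups without overlap, where 37.1% of all tested probe sets had none. Of the 5, 4 had a positive difference, where 52.1% of all tested probe sets had one. Their median difference was 0.22 on the log2 scale, beside 0.01 over all tested probe sets. With 5 genes these shares are descriptions only.

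A ratio of 2 probe sets on the same array does not change when all intensities of that array are multiplied by the same factor. Quantile normalisation can change it. EME1 was also set against each other member in this way within each array, using deposited intensities. EME1 over MUS81 was 3.85 and 5.11 on the high grain number arrays, against 1.38 and 1.49 on the low arrays, so the ratio was 3.10 times as large in the high bulks (geometric means). The same ratio to DMC1 was 7.89 and 24.0 in the high bulks, against 5.81 and 5.37 in the low bulks. DMC1 was dim as deposited (26.7 and 12.1 in the high bulks, against 12.6 and 23.1 in the low bulks), so the size of its ratio is uncertain, and the 24.0 rests on the 12.1. EME1 over PAIR2 was 1.94 and 3.28 on the high arrays, against 1.71 and 1.41 on the low arrays, a smaller separation. EME1 over MEL1 was 0.366 and 0.651 on the high arrays, against 0.256 and 0.202 on the low arrays. Against MUS81, DMC1, PAIR2 and MEL1 the ratio was higher on both high arrays, and against the dim PAIR1 the groups overlapped (32.9 and 21.6 in the high bulks, against 48.8 and 8.44 in the low bulks). EME1 was chosen by the same intensities, so these ratios are a description with no test.

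**Figure D2:**
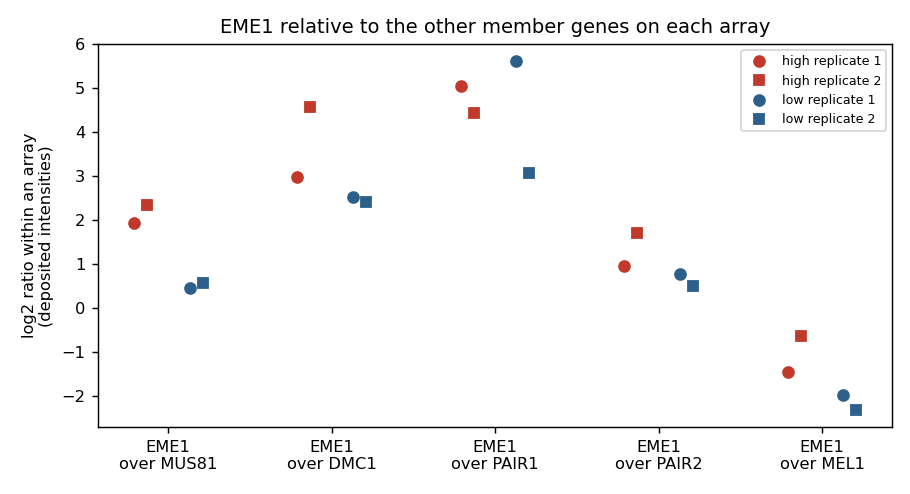
The log2 ratio of EME1 to each other member on the same array, from deposited intensities, with high grain number arrays in red left of low grain number arrays in blue. Circles are replicate 1 and squares replicate 2. The ratios to MUS81, DMC1, PAIR2 and MEL1 separate the groups, and the ratio to PAIR1 does not.

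To see whether other genes of the pathway differed, 100 names in 5 lists were looked up, and they led to 32 genes beyond the members. Of these, 27 had a probe set and all 27 were tested. None passed the threshold in either direction (0 higher and 0 lower by limma, with 1 gene under 0.05 before adjustment), where 0.154% of all tested probe sets passed as higher and 0.414% as lower. Their differences ranged from -0.27 to 0.75 with a median of 0.01, and 15 were positive and 12 negative. Groups did not overlap for 10 of the 27 (37.0%), beside 37.1% of all tested probe sets. Of the 27, 26 lay within the central 95% of all tested differences (-0.59 to 0.53).

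The gene outside that range was SPO11-4 (LOC4352826), a member of the family of proteins that break DNA to start meiotic recombination. It had 790 and 1010 in the high grain number bulks, against 603 and 457 in the low bulks. Both high arrays were above both low arrays. The log2 difference was 0.75 ± 0.20 (SE, limma adjusted p = 0.198), so it did not pass. Among the settings run, it passed only with the replicate number as a block (limma adjusted p = 0.0305), and no label says that the numbers pair the arrays.

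In the list of strand break formation and meiotic entry, 0 of 7 tested genes passed (limma, 1 at an unadjusted p under 0.05, SPO11-4), and 5 had a negative difference. MSP1, a receptor kinase that limits the number of germ cells in rice, had 0.12 ± 0.16 on the log2 scale, and CRC1, a synaptonemal complex protein of rice, had -0.27 ± 0.20. SPO11-3, a topoisomerase VI subunit that is also held by the nuclease list as TOP6A3, had -0.26 ± 0.26.

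In the strand exchange and repair list, 0 of 8 tested genes passed (limma, 0 at an unadjusted p under 0.05), with differences from -0.17 to 0.26. The ends of that range were RPA1C and RPA1A, large subunits of the protein that coats single-stranded DNA, with -0.17 ± 0.21 and 0.26 ± 0.20. RPA1A had 128 and 130 in the high grain number bulks, against 99.8 and 110 in the low bulks. MRE11, which trims broken ends, had 0.11 ± 0.20, and RPA1B had -0.06 ± 0.23.

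In the crossover maturation list, 0 of 4 tested genes passed (limma, 0 at an unadjusted p under 0.05). MSH5, a mismatch repair relative that stabilises crossovers, had 0.14 ± 0.23 and SHOC1 0.03 ± 0.21. The helicase MER3 had -0.27 ± 0.23 and HEI10, which marks crossover sites, had -0.18 ± 0.18, both from dim probe sets under 20. Of the axis and synapsis list only PSS1 (LOC4344521), a kinesin needed in rice male meiosis, was tested, with 0.36 ± 0.24 on the log2 scale (limma adjusted p = 0.790).

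The nuclease list holds nucleases that cut branched DNA and also other genes, such as the topoisomerase VI subunits TOP6A3 and TOP6B. The names XPF and ERCC1 on this list led to no tested gene. Of the list's 8 tested genes 0 passed (limma, 0 at an unadjusted p under 0.05), 5 had a positive difference, and the median was 0.15. FEN1B (LOC4334691), a flap endonuclease, had 375 and 346 in the high grain number bulks, against 250 and 290 in the low bulks. That is a difference of 0.40 ± 0.19 on the log2 scale (limma adjusted p = 0.649). TOP6B, a topoisomerase VI subunit, had 0.42 ± 0.22 (limma adjusted p = 0.690). SEND1 and GEN1, which belong to a family of junction-cutting nucleases, had 0.28 ± 0.20 and -0.06 ± 0.23. FEN1A, the other flap endonuclease, had -0.18 ± 0.21.

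**Figure D3:**
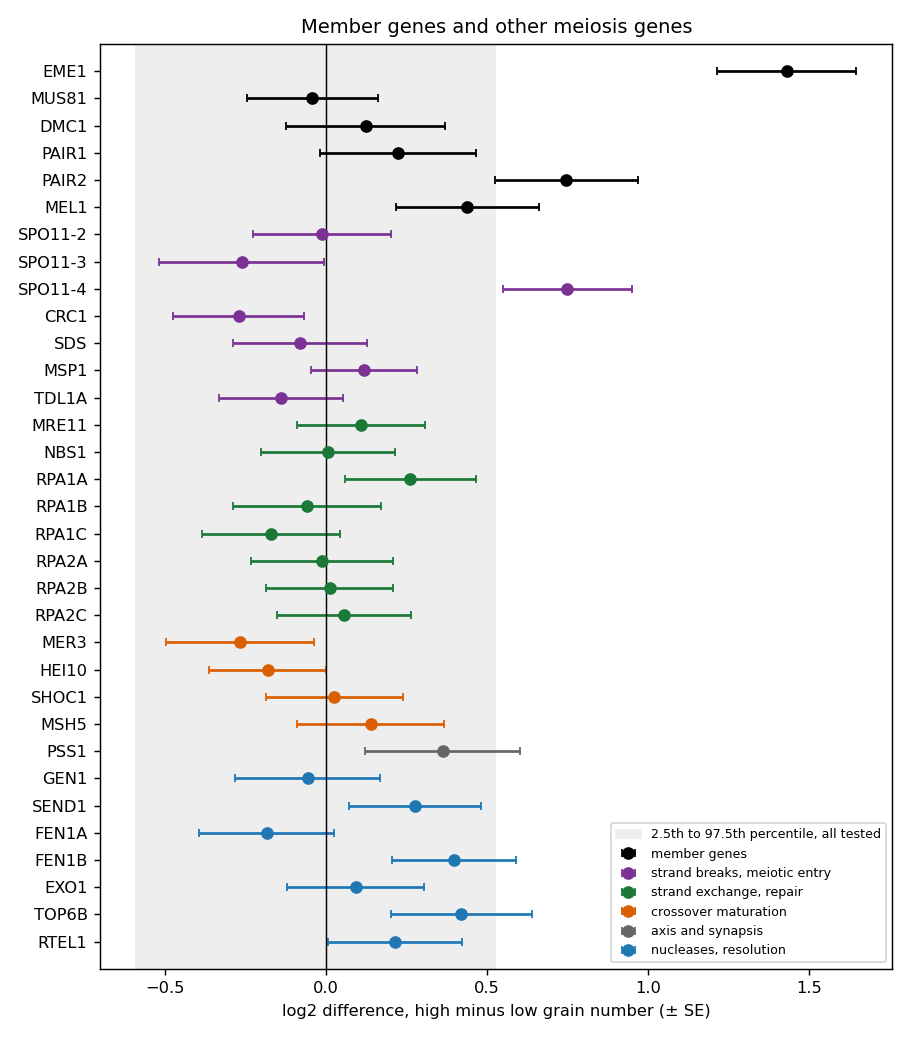
Log2 difference, high minus low grain number, with the limma standard error as bars, for the 6 members in black and 27 other meiosis genes coloured by list. The grey band holds the central 95% of all tested probe sets (-0.59 to 0.53). EME1, PAIR2 and SPO11-4 lie to the right of the band and every other point lies inside it.

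The genes beside EME1 on its chromosome were examined by their order in the gene table. The table's assembly is not known to be the array's, so no coordinates are given. Of the 10 measured genes on each side of EME1, 1 of 20 passed the threshold as higher and 0 as lower (limma, 1 at an unadjusted p under 0.05), where 0.154% and 0.414% of all tested probe sets did. The 20 had 10 positive and 10 negative differences, with a median of 0.00, and 7 had groups without overlap, beside 37.1% of all tested probe sets.

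The gene that passed was LOC4337211, which has no other name in the table and lies 2 genes from EME1. It had 115 and 90.1 in the high grain number bulks, against 24.1 and 30.0 in the low bulks. Both high arrays stood far above both low arrays, as for EME1. The log2 difference was 1.46 ± 0.22 (SE, limma adjusted p = 0.0152), or 2.75-fold, close to the 1.43 of EME1. LOC4337212, which lies between LOC4337211 and EME1, had 233 and 326 in the high bulks, against 238 and 245 in the low bulks. Its difference was 0.18 ± 0.21 on the log2 scale (limma adjusted p = 0.909). The spans of these genes do not overlap in the table. The call for LOC4337211 was lost without high replicate 1 (limma adjusted p = 0.090), without low replicate 1 (0.175), without low replicate 2 (0.118) and with no filter on dim probe sets (0.386). Its difference was 1.46 with no filter and lay between 1.31 and 1.63 on the log2 scale when 1 array was left out.

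Farther out, 2 genes were chosen after their values were seen. LOC4337241, 21 measured genes from EME1, had a log2 difference of 3.09 ± 0.28 (limma adjusted p = 6.15e-04), with 552 and 492 in the high grain number bulks and 29.6 and 70.7 in the low bulks. LOC4337187, 12 measured genes away on the other side, had 1682 and 944 in the high bulks, against 659 and 583 in the low bulks, and did not pass (1.01 ± 0.24, limma adjusted p = 0.134). It passed without high replicate 2 (limma adjusted p = 0.0174) and with the replicate block (0.00152). Among the 80 measured genes within 40 on either side, a wider window than the planned 10, 2 passed as higher and 0 as lower. The 2 were LOC4337211 and LOC4337241. As LOC4337241 was chosen after its value was seen, this count is a description with no test. Of all tested probe sets, 0.154% passed as higher and 0.414% as lower.

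**Figure D4:**
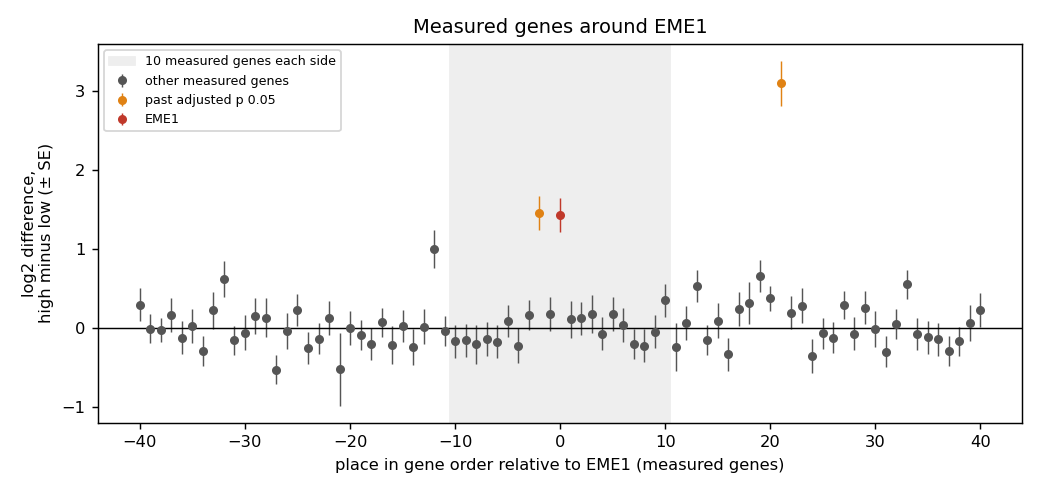
Log2 difference with standard error for EME1 (red) and the 40 measured genes on each side of it, by place in the gene order. The grey band holds the 10 measured genes on each side, and orange points passed the threshold. LOC4337211, at -2, sits at the same height as EME1 among neighbours near 0, and LOC4337241 is the high point at 21.

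The probe sets whose pattern over the 4 arrays was most like that of EME1 were ranked by Euclidean distance between mean-centred log2 values, among those paired with 1 gene. Being chosen for their pattern, they are described without a test. The nearest were LOC4326771 (distance 0.257), LOC4333113 (0.270), LOC4339158 (0.371), LOC4338021 (0.372) and LOC4341944 (0.376). LOC4326771 had 66.8 and 83.2 in the high grain number bulks, against 21.9 and 17.1 in the low bulks. LOC4341944 had 165 and 297 in the high bulks, against 78.8 and 97.4 in the low bulks, with the second array of each group higher, as in EME1. None of these 5 was a member or a gene matched from the meiosis lists. PAIR2 was the nearest member, at 0.840 with 261 probe sets nearer, and MUS81 was farther, with 17815 nearer.

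Markers of other tissue differed between the same bulks, and their part in the EME1 difference was not tested. Of 13 tested anther and tapetum genes, 5 had a positive and 8 a negative difference, with 1 past the threshold as lower and 0 as higher, where 0.414% and 0.154% of all tested probe sets passed. The gene past it was RTS, a tapetum gene, with 1.52 and 0.875 in the high grain number bulks, against 224 and 553 in the low bulks (limma adjusted p = 2.58e-04). C6, an anther lipid transfer protein gene, had 26.2 and 293 in the high bulks, against 650 and 993 in the low bulks (limma adjusted p = 0.115). The summed intensity of the list was 1184 and 1307 in the high bulks, against 2013 and 2664 in the low bulks. Without RTS and C6, the other 11 genes summed to 1156 and 1014 in the high bulks, against 1140 and 1119 in the low bulks, so those groups overlapped. Among 6 secondary wall genes, 4 passed as lower, where 0.414% of all tested probe sets did. The 6 had sums of 420 and 372 in the high bulks, against 720 and 914 in the low bulks. CAD2, the brightest of the 6, had 335 and 227 in the high bulks, against 259 and 352 in the low bulks. Leaf genes had sums of 2577 and 2057 in the high bulks, against 2642 and 2228 in the low bulks, with 0 of 5 tested past it (limma, 0 at an unadjusted p under 0.05). Most of each leaf sum came from 1 gene, CAB2R, with 2410 and 1896 in the high bulks, against 2479 and 2073 in the low bulks. The sums therefore say little about the other leaf genes. Of the 5, 3 had a positive and 2 a negative difference.

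Genes of DNA replication, which mark dividing cells, had 15 of 19 tested members with a negative difference and 4 with a positive difference. Their median was -0.12, and 0 passed (limma, 1 at an unadjusted p under 0.05). Of all tested probe sets, 52.1% had a positive difference, 0.154% passed as higher and 0.414% as lower. By limma, 8.24% of all tested probe sets had an unadjusted p under 0.05. RPA32 in the replication list is the same gene as RPA2A in the strand exchange list. The summed intensity of the replication genes was 3946 and 3846 in the high grain number bulks and 4186 and 4351 in the low bulks. Actin's 3′ to 5′ signal ratio, which tends to grow as RNA degrades, was 33.3 and 36.9 in the high grain number bulks, against 42.2 and 47.8 in the low bulks. As deposited, the 5′ probe set had 56.5 and 43.7 in the high bulks, against 38.4 and 44.7 in the low bulks. The 3′ probe set had 1881 and 1612, against 1621 and 2137, so the 3′ signal was far stronger on all arrays. The part of RNA quality in the EME1 difference was not tested.

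EME1 had a difference of at least 1.12 on the log2 scale under each of the 11 other ways of processing that refit the table, and the other members stayed below it in each. EME1 was chosen by its difference on these same arrays, so its place under these settings is a description with no test. PAIR2 ranged from 0.49 to 0.90 and MEL1 from 0.21 to 0.67. MUS81 was between -0.21 and -0.02. DMC1 was at -0.22 without high replicate 1 and PAIR1 at -0.11 without low replicate 1, with positive values under the other settings run. None of the 5 passed the threshold under any of these settings.

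**Figure D5:**
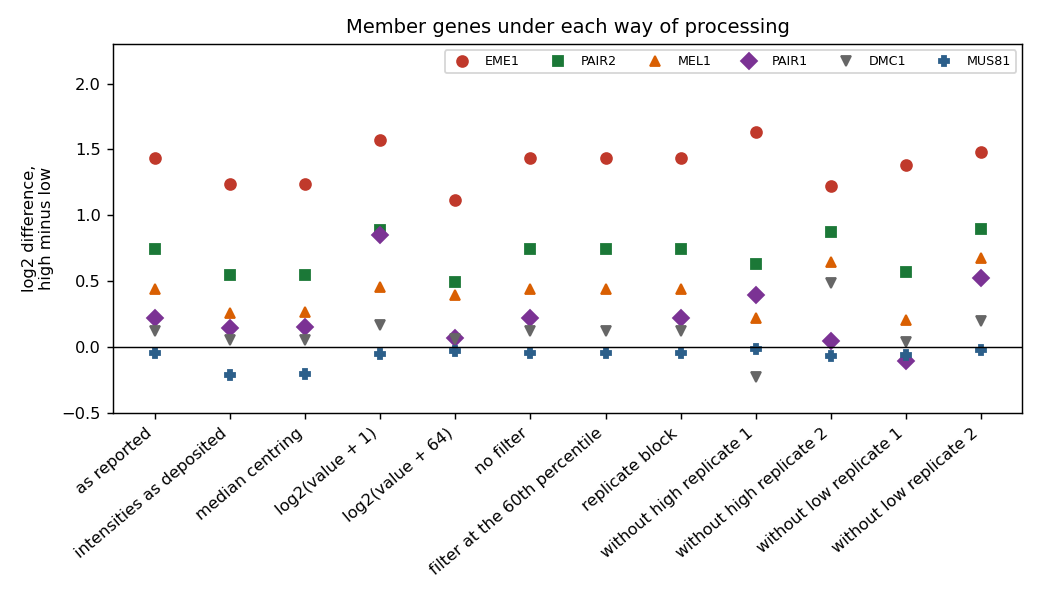
Log2 difference, high minus low grain number, of each member as reported and under 11 other ways of processing, including each array left out in turn. EME1, chosen by its difference on these same arrays, lies between 1.12 and 1.64 and above every other member in each column. PAIR1 has no point with the filter at the 60th percentile, where it was not tested.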

How the data were processed

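RNA was biotin-labelled and hybridised to an Affymetrix rice array, per the labels' protocols. The authors used GCOS 1.2, per the submitters' processing notes, and deposited 1 linear intensity per probe set and array. The scaling the authors used is not given in the sources used here. Control probe sets (187 of 57381) were left out. Intensities were quantile normalised, put on the log2(intensity + 16) scale, filtered at the 40th percentile of mean log2 value, and fitted in R 4.3.3 by limma 3.58.1 with group as the term and a mean-variance trend. The number of arrays limits the precision.

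Probe sets were named through the platform's gene pairing (22436 with 1 gene, 95 with several, 34663 with none), which can be old, and NCBI's gene table (assembly ASM3414082v1). A gene with several tested probe sets was represented by the one with the highest mean. In the lists, 9 matches to genes of another function with the same synonym were left out after the table was seen. The rule for named genes took all members, in each of the 5 meiosis lists the 2 genes of lowest p each way, 5 genes most like EME1, and neighbours within 10 measured genes past the threshold. Named outside it, after their values were seen, were SEND1, GEN1, OSH1, SPL14, RFL, ASP1, LAX1, FZP, RTS, C6, CAD2, CAB2R, RPA32 (RPA2A), LOC4337212, LOC4337187 and LOC4337241. The members and lists were chosen with earlier results of these data known. The fit was also run on values simulated with independent normal noise at the spread limma had fitted, so its own assumptions were not checked.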

Additional observations from a re-analysis of the deposited data

How the results depend on the processing

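The number of probe sets past the threshold (195, 53 higher and 142 lower) was 391 after median centring, 128 with log2(value + 1), 0 with no filter on dim probe sets (limma, 3849 at an unadjusted p under 0.05) and 53 to 229 without 1 array. With deposited intensities it was 270 (37 higher and 233 lower). With the replicate number as a block it was 654 (189 higher, 465 lower). Replicate deviations of the groups correlated at 0.111 over probe sets and the labels do not say that numbers pair the arrays, so this pairing was not used. With the block, 1 gene of the meiosis lists passed (SPO11-4) in place of 0, and the block changed no call among the members other than EME1. The EME1 difference (1.43) was 1.12 with log2(value + 64), as that scale implies, and 1.22 to 1.64 without 1 array. The median of the members other than EME1 (0.22) was 0.45 with log2(value + 1), 0.069 with log2(value + 64), and 0.038 to 0.52 without 1 array. DMC1 ranged from -0.22 to 0.49 and PAIR1 from -0.11 to 0.52 without 1 array. The count near EME1 (1) was 0 with no filter and 0 to 1 without 1 array. The median of the meiosis lists (0.01) was -0.13 with deposited intensities, where the median of all tested probe sets was -0.07. Except for the construction of the scales, the cause was not tested. Where 1 array stands for a group, its spread is taken from the other group. Dim probe sets such as PAIR1 limit what could be detected. Keeping the genes of other function in the lists, an alternative chosen after seeing the data, left 0 called.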
